A study of Macaca mulatta with 102 samples.

Results

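TPT1 and FTL are abundant transcripts of most cells, and their levels in the mammary biopsies, milk cells and milk fat of lactating rhesus macaques are described here, together with their change between day 30 and day 90 of lactation. They were taken as 2 of the 42701 transcript rows for which FPKM (fragments mapped to a transcript, relative to its length and to all mapped fragments) were given: ENSMMUT00000006563 for TPT1 and ENSMMUT00000038434 for FTL. Both were chosen by their mean FPKM, which put them among the most abundant coding transcripts in biopsies, in milk cells and in milk fat. High levels in these 3 sample types are therefore how the transcripts were chosen, and the levels are given as a description with no test.

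TPT1 encodes the translationally controlled tumor protein, a calcium-binding protein linked to cell growth and survival, whose mRNA carries a terminal oligopyrimidine tract like the mRNAs of ribosomal proteins. FTL encodes the light chain of ferritin, the protein shell that stores iron, and FTH1 encodes the heavy chain, which oxidizes the iron that enters the shell. The synthesis of both ferritin chains is held back when iron is scarce, through an iron-responsive element in the mRNA, so that the level of a ferritin mRNA need not follow that of its protein. Macrophages, which recycle iron, are known for high levels of ferritin, and both TPT1 and the ferritin genes have many processed copies in primate genomes.

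RNA was sequenced from samples of 6 prime-aged multiparous mothers, M1 to M6, each nursing a male infant, and the groups differ by sample type and day and not by treatment. An animal that the sources used here do not name was given antibiotics after its biopsy. Milk was collected at day 30 and day 90 post-partum after a period of accumulation and an injection of oxytocin, and was centrifuged into a fat layer and a cell pellet. The mammary gland was biopsied once in each animal. Every sample was sequenced in 3 technical runs, which were averaged here.

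The labels name 5 kinds of sample. Bx is the biopsy, from day 30 in M3, M4 and M6 and from day 90 in M1, M2 and M5, so that the days of biopsies lie in different animals. Cells is the milk cell pellet, from both days in all 6 animals, and holds epithelial cells and leukocytes together. Fat is the milk fat layer, from day 30 in M1, M2, M3 and M6 and from day 90 in all 6 animals. FatS10 is a further day 90 milk sample of M1, M2, M4, M5 and M6 (spelled FatsS10 in M4), and Skim10m is 1 day 90 sample of M3. The labels do not explain FatS10 or Skim10m. The study counts 6 cell-free milk samples, and these are the only 6 samples without another name, but they are called by their labels here.

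By relative depth, estimated from the spacing of low FPKM with the median sample at 1, biopsies lay between 0.619 and 1.06, milk cells between 0.842 and 1.21, milk fat between 0.755 and 1.59 and FatS10 between 0.933 and 1.23. The number of reads behind an FPKM was not known, so no interval for counting error is given. CSN2, the gene of beta-casein, which marks milk-secreting epithelium, was among the highest rows in every sample type and lay between 272092 and 494120 FPKM in the milk cells. Library labels carry a number, 2 for the milk of M1 and M2, 3 for M3 and M4 and 4 for M5 and M6, so that this number and the animal cannot be told apart, while both days of an animal's milk share it.

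Names rest on matching each row's mean FPKM in the 3 sample types to the values printed beside each symbol, since no table used here paired these transcript identifiers with symbols. The match for TPT1 differed by at most 0.132% in any sample type, and the next candidate row was 266 times farther away. For FTL the match was within 0.397%, with the next candidate 96.3 times farther. All 22 coding rows looked up this way were matched to within 1.52%.

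The TPT1 row lies on chromosome 1 at positions 175086475 to 175086994 of the rheMac2 assembly, a span of 520 bases that no other row overlaps and that has no other row within 20000 bases. RefSeq's annotation of a later macaque assembly puts TPT1 on another chromosome, so that the row may hold a copy of the gene. The FTL row lies on chromosome 19 at positions 55247878 to 55248075 and spans 198 bases. It is overlapped by a longer row, ENSMMUT00000005540, at positions 55247872 to 55249766. RefSeq has FTL on the same chromosome. The FTH1 row, on chromosome X at positions 123293385 to 123294143, is likewise not on the chromosome where RefSeq has FTH1. Reads from a gene and from a near-identical copy of it cannot be told apart in these values, so that the values belong to the rows and possibly to more than 1 locus.

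As levels per length, both transcripts were near the top of every sample. TPT1 ranked between 10 and 29 among the 42701 rows over the 34 samples and FTL between 8 and 35. The share of the summed FPKM of a sample that TPT1 took was 0.162% to 0.381%, with a median of 0.236%. That of FTL was 0.137% to 1.24%, with a median of 0.276%. The widest range, that of FTL, came from the milk cells of 1 animal, M2.

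Technical error was small beside the differences between animals. The coefficient of variation over the 3 runs of a sample had a median of 1.25% for TPT1 (0.0806% to 3.001% over 34 samples) and of 3.53% for FTL (0.523% to 8.52%). The FTL row, the shorter, was the less precise. For FTH1 the median was 0.621%.

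In the biopsies of day 30, TPT1 was at 3565 FPKM in M3, 1889 FPKM in M4 and 1708 FPKM in M6. At day 90 it was at 3401 FPKM in M1, 3991 FPKM in M2 and 1876 FPKM in M5. The 6 biopsies thus fell into a high set, M1, M2 and M3, and a low set, M4, M5 and M6, with no value between 1889 and 3401 FPKM, and each day had animals in both. After scaling the sets were also apart, at 4854 to 5246 FPKM and at 1547 to 2069 FPKM. The biopsies of M3, M4 and M5 carry the same library number and lay in both sets.

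Some other rows divided the same 6 biopsies. They are examples, since the sets were drawn from the TPT1 values and the share of all rows that divide them was not counted. ATP5J2, a subunit of the mitochondrial ATP synthase, was at 1737 FPKM in M1, 2062 FPKM in M2 and 2071 FPKM in M3, and at 828.5 FPKM in M4, 718 FPKM in M5 and 816 FPKM in M6. The first CSN2 row was at 542640 to 633745 FPKM in M1, M2 and M3 and at 336334 to 418728 FPKM in M4, M5 and M6. A second CSN2 row had the opposite order, at 14768 to 22513 FPKM and 60511 to 68840 FPKM. The libraries of these biopsies therefore differed in rows other than TPT1, and the part this had in the TPT1 values was not tested.

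FTL as deposited had these sets in the opposite order, but by a gap within technical error. It was at 2909 FPKM in M3, 2944 FPKM in M4 and 2971 FPKM in M6 at day 30, and at 1450 FPKM in M1, 2328 FPKM in M2 and 3740 FPKM in M5 at day 90. M1, M2 and M3 thus lay at or below 2909 FPKM and M4, M5 and M6 at or above 2944 FPKM. The SD over the technical runs was 137 FPKM in M3 and 98.6 FPKM in M4, so that these animals were not told apart. After scaling M3, at 4212 FPKM, was the highest and the sets overlapped. The day 30 biopsies were almost equal as deposited, whereas those of day 90 covered a range that included them.

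In milk cells as deposited, TPT1 ranged from 2314 to 3520 FPKM at day 30, with a median of 2724 FPKM, and from 1671 to 2297 FPKM at day 90, with a median of 1901 FPKM. FTL in the same cells was at 2700 FPKM in M1, 3039 FPKM in M3, 3518 FPKM in M4, 3745 FPKM in M6, 5468 FPKM in M5 and 11876 FPKM in M2 at day 30. At day 90 it was at 1748 FPKM in M1, 2550 FPKM in M6, 2807 FPKM in M3, 3020 FPKM in M4, 3406 FPKM in M5 and 7071 FPKM in M2. M1 had the lowest and M2 the highest FTL level on both days.

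In milk fat, TPT1 was at 3002 FPKM in M1, 3175 FPKM in M2, 2357 FPKM in M3 and 2402 FPKM in M6 at day 30, and from 2643 to 3568 FPKM over the 6 animals at day 90, with a median of 3237 FPKM. FTL was at 2030 FPKM in M1, 3652 FPKM in M2, 2251 FPKM in M3 and 2821 FPKM in M6 at day 30, and from 1527 to 5032 FPKM at day 90, with a median of 2923 FPKM. M1 again had the lowest FTL level on both days, and M5 had the highest at day 90.

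The FatS10 samples had TPT1 at 3073 FPKM in M1, 2738 FPKM in M2, 2327 FPKM in M4, 2648 FPKM in M5 and 2095 FPKM in M6. They had FTL at 2060 FPKM in M1, 3672 FPKM in M2, 3333 FPKM in M4, 4366 FPKM in M5 and 3337 FPKM in M6. The Skim10m sample of M3 had 2517 FPKM of TPT1 and 2655 FPKM of FTL. Both values of this sample lay within the range of the FatS10 samples.

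**Figure D1:**
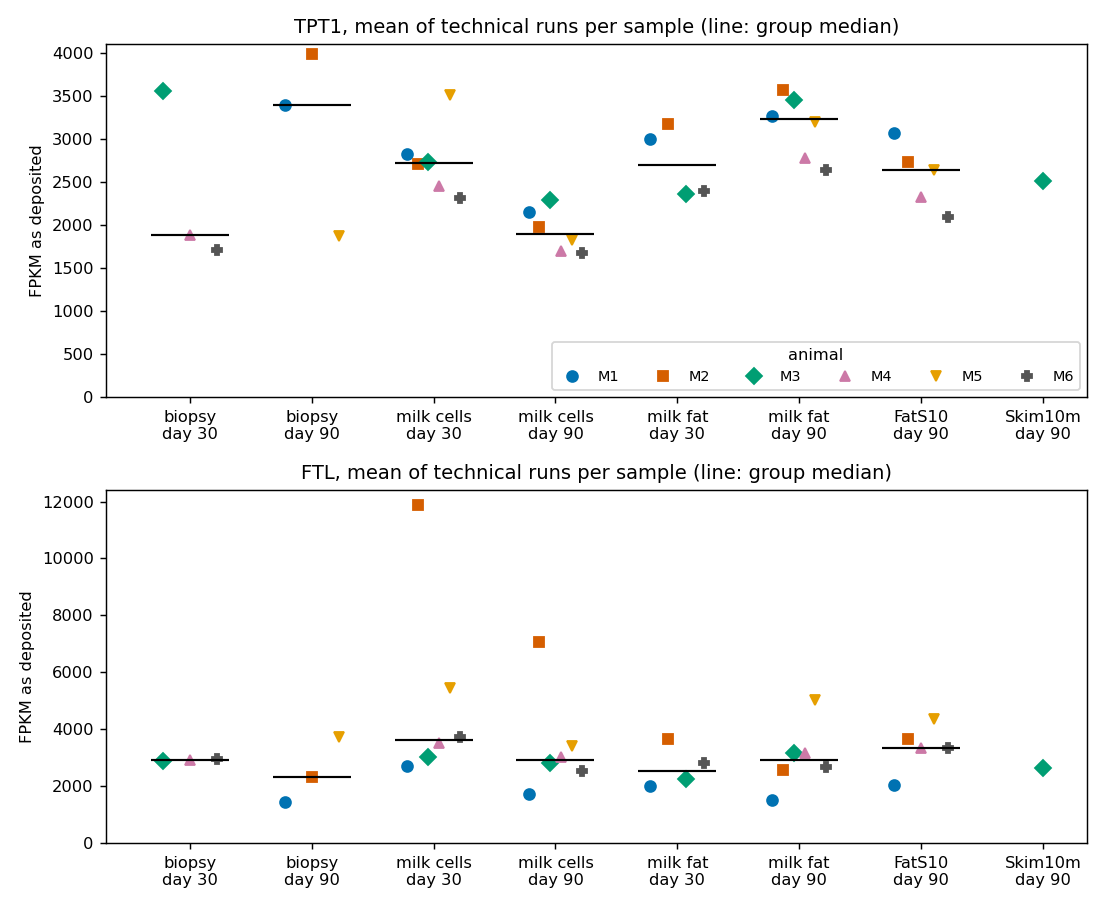
FPKM as deposited of TPT1 (top) and FTL (bottom) in each sample, as the mean of 3 technical runs, by sample type and day, with 1 symbol and color per animal and a line at the group median. TPT1 biopsies lie at 3401 FPKM or more in M1, M2 and M3 and at 1889 FPKM or less in the others, and the milk cells of M2 stand at 11876 and 7071 FPKM of FTL.

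By mean over all samples of a type, the order for TPT1 was milk fat, at 2987 ± 425 FPKM (SD, n = 10), then biopsies, at 2739 ± 1022 FPKM (SD, n = 6), and then milk cells, at 2350 ± 542 FPKM (SD, n = 12). For FTL it was milk cells, at 4246 ± 2791 FPKM (SD, n = 12), then milk fat, at 2893 ± 972 FPKM (SD, n = 10), and then biopsies, at 2724 ± 769 FPKM (SD, n = 6). FatS10, at 2576 ± 378 FPKM of TPT1 and 3354 ± 837 FPKM of FTL (SD, n = 5), stood between the types in both orders. Each type differed from its neighbor in these orders by less than the larger of their SDs. For FTL this was the SD of milk cells in the pair with milk fat, and that of milk fat in the pair with biopsies. The samples of a type include both days of an animal and are not independent.

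Some orders of the animals recurred between sample types. The share of all rows with such an order was not counted, and the sets for TPT1 were first drawn from its biopsy values. As deposited, M1 had the lowest FTL level in each of the 6 groups that hold it, and after scaling this was also so. TPT1 as deposited was lower in each of M4, M5 and M6 than in each of M1, M2 and M3 that was sampled, in biopsies, in day 90 milk cells, in day 90 milk fat and in FatS10. After scaling this order was lost in day 90 milk cells, where M2 was lowest, and in day 90 milk fat and FatS10. At day 30 it was not seen as deposited in milk cells, where M5 had the highest TPT1 level, or in milk fat, where M3 was below M6.

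The name of housekeeping transcripts was set against the spread of other abundant rows. On log2(scaled FPKM + 1), with scaling by the median ratio of each sample to the mean sample over transcripts above 0 everywhere, the SD of TPT1 over 34 samples was 0.48 and that of FTL 0.50, with 0.39 for FTH1. Of the 41 rows with a mean of at least 1000 FPKM, 4 had a smaller SD than TPT1, 6 had a smaller SD than FTL and 0 had a smaller SD than FTH1, and the median SD was 0.64. Both transcripts were thus among the less variable of the abundant rows over all samples.

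Within sample types the picture was different. In biopsies the SD of TPT1 was 0.85, and 31 of the 41 rows varied less, whereas in milk cells it was 0.41 and in milk fat 0.27, where 2 and 3 rows varied less. FTL varied less than TPT1 in biopsies, at an SD of 0.40, but more in milk cells, at an SD of 0.58, where 28 of the 41 rows varied less than it did. In milk fat FTL stood at the median of these rows, at 0.51.

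The levels of both transcripts in milk cells were mostly lower at day 90 than at day 30, but the difference did not pass the test without animal as a block. The day was tested because it had no part in the choice of the rows. After scaling, TPT1 was at 1931 to 3409 FPKM at day 30, with a median of 2598 FPKM, and at 1412 to 3222 FPKM at day 90, with a median of 1752 FPKM. In each of the 6 animals the day 90 value was the lower. As deposited, all values of day 90 lay under all values of day 30, as they did for 2.15% of the 13815 transcripts tested, whereas after scaling the days overlapped, with M3 at 3222 FPKM and M1 at 2047 FPKM at day 90 both above M2 at day 30.

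The scaled day 90 level of TPT1 was 0.757 times the day 30 level in M1, 0.731 times in M2, 0.945 times in M3, 0.627 times in M4, 0.644 times in M5 and 0.731 times in M6. As deposited the ratio was 0.838 in M3 and 0.518 in M5, and those of the other animals lay between 0.692 and 0.762. M3 changed least with and without scaling. A value lower in all 6 animals was found for 17.1% of the transcripts tested after scaling and 19.6% as deposited.

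Fitted by limma over the 13815 transcripts whose FPKM averaged at least 1 in these samples, the change of TPT1 was -0.45 ± 0.21 on the log2 scale (SE, n = 6 animals per day), a level at day 90 of 0.732 times that of day 30, and did not pass (Benjamini-Hochberg adjusted p = 0.179). In that fit 1.57% of the transcripts were called lower and 3.53% higher. With animal as a block the same change of TPT1 had an SE of 0.10 and passed (limma adjusted p = 0.0181), in a fit that called 13.4% of the transcripts lower and 11.6% higher. As deposited it was -0.51 ± 0.13 (adjusted p = 0.0641), and -0.51 ± 0.11 with the block (limma adjusted p = 0.0162). Without M3 it passed in the fit without a block too (adjusted p = 0.0279). In the fit with the block it was no longer called when M1, M2, M5 or M6 was left out, where the adjusted p was at most 0.0602, and it was still called without M3 or M4.

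FTL in milk cells after scaling ranged from 2576 to 8465 FPKM at day 30, with a median of 3764 FPKM, and from 1657 to 5047 FPKM at day 90, with a median of 3078 FPKM. The days overlapped widely, because the animals differed more than the days. The scaled day 90 level was 0.643 times that of day 30 in M1, 0.596 times in M2, 1.04 times in M3, 0.778 times in M4, 0.774 times in M5 and 0.689 times in M6. As deposited, M3 fell too, to 0.924 times its day 30 level, so that 6 of 6 animals were lower as deposited and 5 of 6 after scaling.

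The fitted change of FTL in milk cells was -0.43 ± 0.31 (log2, SE) and did not pass (limma adjusted p = 0.372). With animal as a block the SE was 0.12 and the change passed (limma adjusted p = 0.0318), and likewise as deposited with the block, at -0.49 ± 0.11 (limma adjusted p = 0.0201). This call was lost when M1, M2, M4, M5 or M6 was left out, with an adjusted p of at most 0.0967, and kept without M3, the animal that rose after scaling (limma adjusted p = 0.0100). The overlapping longer row, at 109 to 480 FPKM in milk cells, was lower at day 90 in 6 of 6 animals as deposited and in 5 of 6 after scaling, with M3 again the exception.

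FTH1, the other ferritin chain, was lower in 6 of 6 animals at day 90 with and without scaling. Its fitted change in milk cells was -0.43 ± 0.15 (log2, SE, limma adjusted p = 0.0934). With the block the SE was 0.09 and the change passed (limma adjusted p = 0.0139), and it was lost only without M6 among the blocked fits that left out 1 animal (limma adjusted p = 0.0503). The fitted changes of TPT1, FTL and FTH1 were thus within 0.02 of each other, with day 90 levels of 0.732, 0.741 and 0.740 times those of day 30.

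**Figure D2:**
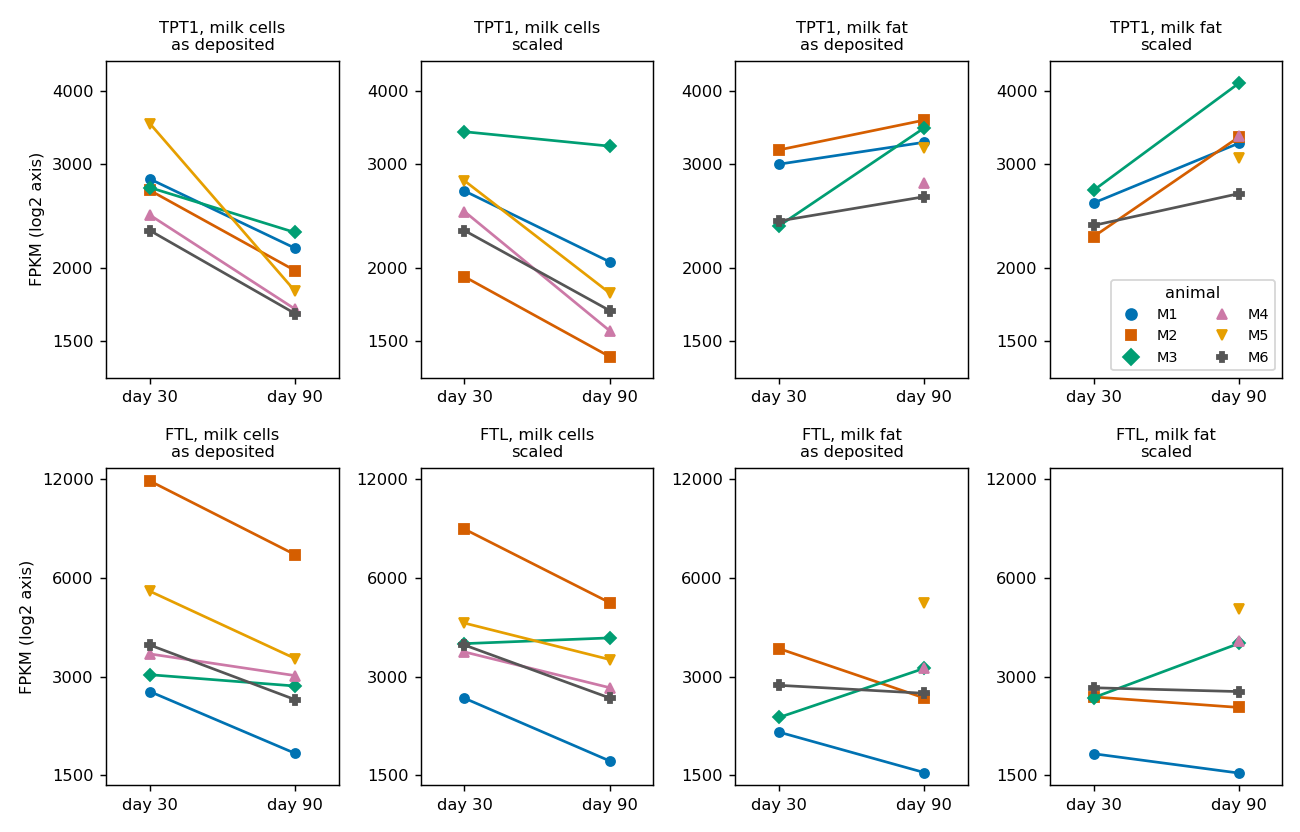
FPKM of TPT1 (top row) and FTL (bottom row) at day 30 and day 90 in milk cells and milk fat, as deposited and after scaling, on log2 axes, with a line joining the 2 days of each animal. All TPT1 lines fall in milk cells and rise in milk fat in both versions, and FTL falls in milk cells except in M3 after scaling. M4 and M5 have milk fat from day 90 only.

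In milk fat the values of TPT1 pointed the other way. After scaling, TPT1 was at 2578 FPKM in M1, 2260 FPKM in M2, 2710 FPKM in M3 and 2361 FPKM in M6 at day 30, and at 3259 FPKM in M1, 3339 FPKM in M2, 4123 FPKM in M3, 3355 FPKM in M4, 3073 FPKM in M5 and 2675 FPKM in M6 at day 90. Only the day 90 sample of M6 lay below the highest sample of day 30. In the 4 animals with both days the day 90 level was 1.26 times that of day 30 in M1, 1.48 times in M2, 1.52 times in M3 and 1.13 times in M6.

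As deposited the same ratios of TPT1 in milk fat were 1.09 in M1, 1.12 in M2, 1.47 in M3 and 1.10 in M6. TPT1 was higher in 4 of 4 animals either way. Of the 12609 transcripts tested, 12.8% were higher in all 4 animals after scaling and 4.62% as deposited. The median change over all transcripts was 0.02 after scaling and -0.14 as deposited (log2), so that scaling raised the changes in milk fat.

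The fitted change of TPT1 in milk fat was 0.41 ± 0.14 (log2, SE, n = 4 and 6) and did not pass (limma adjusted p = 0.915). The 95% interval of this change was 0.09 to 0.72. Of the 12609 transcripts tested, 0% were called by limma in either direction at an adjusted p under 0.05. An unadjusted p under 0.05 was found for 661 of them, near the share that this threshold gives by chance. TPT1 was among the 661 (limma p = 0.0168). With animal as a block the change of TPT1 was 0.42 ± 0.13 (limma adjusted p = 0.305), and 0 transcripts were called, with 1615 at an unadjusted p under 0.05. As deposited the change without the block was 0.21 ± 0.16 (limma adjusted p = 0.844).

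FTL in milk fat had no common direction. After scaling, its day 90 level was 0.873 times that of day 30 in M1, 0.929 times in M2, 1.46 times in M3 and 0.974 times in M6, and as deposited 0.752, 0.706, 1.41 and 0.945 times. The fitted change of 0.32 ± 0.30 (log2, SE, limma adjusted p = 0.953) was above 0 although 3 of the 4 animals with both days were lower. It also takes in the day 90 samples of M4 and M5, at 3840 and 4826 FPKM after scaling, which have no partner. Blocked by animal, it was 0.05 ± 0.16 (limma adjusted p = 0.928). The 95% interval of the fit without the block was -0.35 to 0.98. FTH1 was higher in 3 of 4 animals after scaling and in 1 of 4 as deposited.

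The difference between the day changes of the fractions was tested directly. For TPT1 the change in milk fat minus that in milk cells was 0.86 ± 0.26 (log2, SE), with a 95% interval of 0.31 to 1.40, and did not pass (limma p = 0.00372, adjusted p = 0.217). Over 13521 transcripts 0% were called in this fit, with 2108 at an unadjusted p under 0.05. Blocked by animal, the difference was 0.88 ± 0.19 and passed (limma adjusted p = 0.0292), in a fit that called 5.44% of the transcripts higher and 4.23% lower. As deposited with the block it was 0.73 ± 0.14 (limma adjusted p = 0.0279).

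This call for TPT1 also depended on single animals. Of the fits without a block that left out 1 animal, it passed in that without M3, at 0.91 ± 0.19 (limma adjusted p = 0.0347). With the block it was kept without M3 or M4 and lost without M1, M2, M5 or M6, where the adjusted p was at most 0.138. Over M1, M2, M3 and M6, the 4 animals with milk fat of both days, the difference with the block was 0.77 ± 0.22 (limma adjusted p = 0.143). For FTL the difference was 0.75 ± 0.45 (limma adjusted p = 0.441), and 0.67 ± 0.32 with the block (limma adjusted p = 0.187).

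In biopsies the days lie in different animals. The fitted change of TPT1 was 0.65 ± 0.59 (log2, SE, n = 3 and 3, limma adjusted p = 0.960), with a 95% interval of -0.77 to 2.06. That of FTL was -0.07 ± 0.34 (limma adjusted p = 0.981), with an interval of -0.89 to 0.74. The fit called 0% of 13762 transcripts, with 441 at an unadjusted p under 0.05. The sign for FTL turned when M1 or M3 was left out, to 0.19 and 0.14. At this number of animals, a change of TPT1 in biopsies of the size seen in milk cells was not detectable.

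FatS10 was next compared with the milk fat and milk cells of the same day. The FatS10 samples had no part in the choice of the rows. The milk fat and milk cell samples did, so that the differences are not wholly free of that choice. After scaling, TPT1 in FatS10 was at 2960 FPKM in M1, 2106 FPKM in M4, 2679 FPKM in M5 and 1927 FPKM in M6, with M2 between M4 and M5. All were below the milk fat of the same animal, by 0.14 to 0.67 on the log2 scale. The groups overlapped, since M1 and M5 in FatS10 lay above M6 in milk fat.

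The fitted difference of TPT1 in FatS10 from milk fat was -0.46 ± 0.15 (log2, SE, n = 5 and 6, limma adjusted p = 0.0428), at 0.725 times the level. In this fit 14.1% of 12759 transcripts were called lower and 10.2% higher. The call was lost with each of the 6 animals left out in turn, at an adjusted p of 0.0551 to 0.127, and with animal as a block, at -0.40 ± 0.13 (limma adjusted p = 0.0534), although the fit with the block called 22.3% of the transcripts lower and 17.9% higher. As deposited the difference was -0.30 ± 0.14 (limma adjusted p = 0.133), and -0.27 ± 0.08 with the block (limma adjusted p = 0.0398). A value lower in all 5 animals was found for 26.6% of the transcripts after scaling and 20.2% as deposited.

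Against milk cells of day 90, TPT1 was higher in FatS10 in 5 of 5 animals with and without scaling, as were 22.8% and 19% of 13456 transcripts. The fitted difference was 0.33 ± 0.22 (log2, SE, limma adjusted p = 0.457) in a fit that called 0.141% of the transcripts higher and 0.587% lower. Blocked by animal, it was 0.49 ± 0.10 and passed (limma adjusted p = 0.0182), where 16.6% of the transcripts were called higher and 9.36% lower. This call was lost without M4 or M5, at an adjusted p of 0.0653 and 0.0762. The level of TPT1 in FatS10 thus stood between the levels of milk cells and milk fat.

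FTL in FatS10 differed from neither fraction by more than its error. Against milk fat the fitted difference was 0.03 ± 0.29 (log2, SE, limma adjusted p = 0.959), with a 95% interval of -0.61 to 0.66, and against milk cells it was -0.01 ± 0.28 (limma adjusted p = 0.994), with an interval of -0.63 to 0.61. The animals were divided, 3 higher and 2 lower than their milk fat after scaling, and 4 higher and 1 lower than their milk cells. The animal lower than its milk cells was M2, whose milk cells had the highest FTL level. FTH1 in FatS10 was lower than in milk fat in 5 of 5 animals, at -0.33 ± 0.20 (limma adjusted p = 0.236), and higher than in milk cells in 5 of 5, at 0.50 ± 0.14 (limma adjusted p = 0.129). The latter passed with the block, at 0.48 ± 0.10 (limma adjusted p = 0.0185), and was lost again without M1, M4 or M5, at an adjusted p of at most 0.0772.

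**Figure D3:**
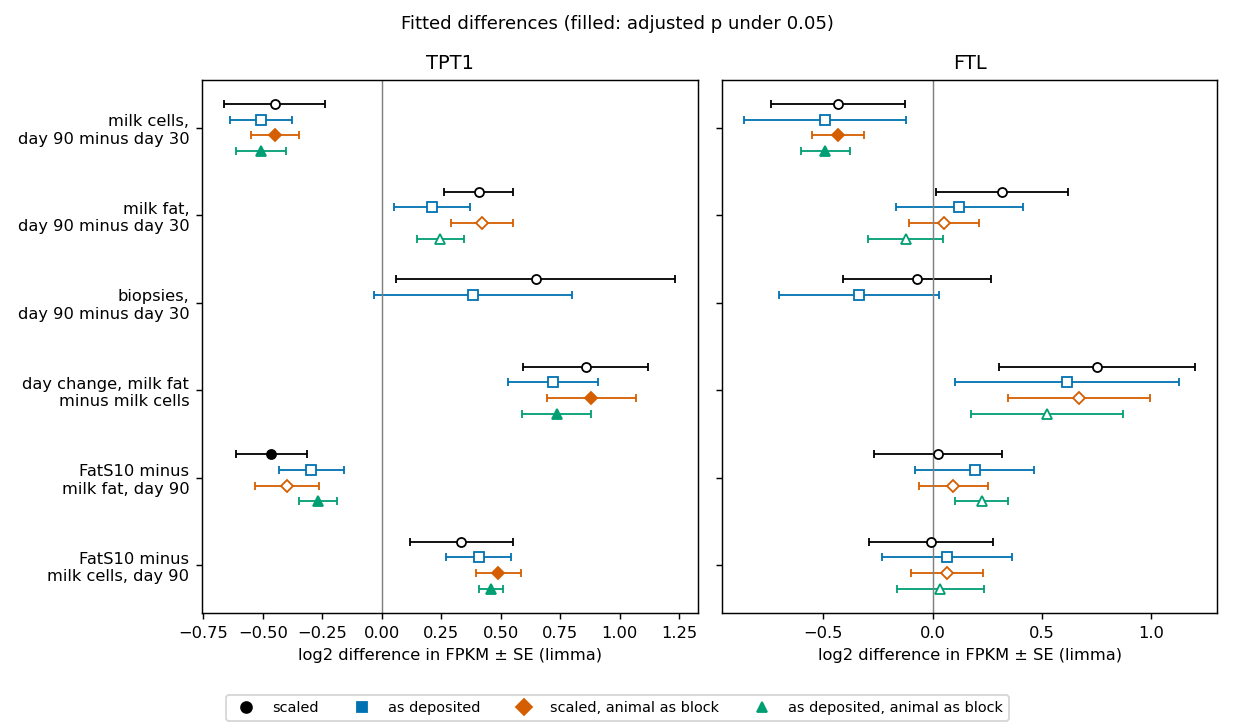
Differences of TPT1 (left) and FTL (right) fitted by limma on a log2 scale, with bars of 1 SE, for each comparison, with scaled FPKM and FPKM as deposited, without and with animal as a block (none for biopsies). Filled symbols have an adjusted p under 0.05. TPT1 lies below 0 in milk cells and above 0 in milk fat in all 4 versions, and its filled symbols belong to fits with the block except for FatS10 against milk fat on scaled FPKM.

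The 20 other coding rows that could be matched to a symbol give the background for these changes. By day in milk cells 0 of them were called by limma (4 had an unadjusted p under 0.05), 15 were negative and their median was -0.27, beside -0.04 over all transcripts tested (log2). In milk fat 0 were called (3 at an unadjusted p under 0.05), 13 were positive and the median was 0.23, beside 0.02. Changes of the sign of TPT1 in each fraction were thus common among these abundant rows. They are not all separate genes, since PLIN2 and CSN2 have multiple rows. LTF, the iron-binding milk protein lactoferrin, was at 1.32 ± 0.42 in milk cells (limma adjusted p = 0.0724), opposite in sign to the ferritin chains. The rows of the milk protein genes CSN2, CSN3 and LGB2 were positive in milk cells too, at 0.10 to 0.26, each by less than its SE. Other milk protein genes were negative there, with LALBA (alpha-lactalbumin) at -0.28 ± 0.40 and LYZ (lysozyme) at -0.11 ± 0.44. Milk protein rows thus had no common direction. In milk fat LTF was at 0.84 ± 0.29 (limma adjusted p = 0.915), with the same sign as the ferritin chains in the fits without the block.

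In FatS10 against milk fat, 7 of the 20 were lower and 0 higher. They were FABP3, a fatty acid carrier, at -0.91 ± 0.20 (limma adjusted p = 0.0123), SERF2, ATP5J2 and the 4 rows of PLIN2, the coat protein of lipid droplets, at -2.23 to -1.74. Against milk cells 4 were higher, and these were the rows of PLIN2, at 2.23 to 2.64. PLIN2 thus stood between the fractions in FatS10 in the same order as TPT1 did, with larger differences.

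Ratios within a sample do not depend on scaling, and FPKM are levels per length. FTL exceeded TPT1 in 10 of 12 milk cell samples, in 5 of 10 milk fat samples, in 3 of 6 biopsies and in 4 of 5 FatS10 samples. The ratio had a median of 1.54 in milk cells, 0.982 in milk fat and 1.19 in biopsies, and its range in milk cells, 0.810 to 4.38, was set by M1 and M2. FTL exceeded FTH1 in 11 of 12 milk cell samples and 6 of 6 biopsies but in 2 of 10 milk fat samples, with medians of 1.41, 1.38 and 0.813. The FTL row is the shortest of these 3, and the levels of short rows depend on how the length is corrected, so that the ratios bear comparison between samples more than against 1.

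The ratio of FTL to TPT1 had no common direction by day in milk cells, where the mean log2 difference was 0.02 ± 0.26 (SD, n = 6) with 3 animals higher and 3 lower (two-sided exact permutation test by sign flips, p = 0.875). In milk fat it was lower in 4 of 4 animals, by a mean log2 difference of -0.37 ± 0.28 (SD, n = 4, exact permutation p = 0.125, the smallest that 4 pairs allow). FatS10 had a higher ratio than milk fat in 5 of 5 animals, by 0.49 ± 0.31 (log2, SD, n = 5, exact permutation p = 0.0625, the smallest that 5 pairs allow), and a lower ratio than milk cells in 4 of 5 (exact permutation p = 0.125). After adjustment over 6 such tests the exact permutation p was 0.25 to 1. With 4 to 6 pairs per test none of them could have passed after adjustment, whatever the values, so no conclusion is drawn from this.

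The ratio of the ferritin chains had no common direction either. The mean log2 difference of FTL to FTH1 was 0.0015 ± 0.34 in milk cells (SD, n = 6, exact permutation p = 1) and 0.0095 ± 0.41 in milk fat (SD, n = 4, exact permutation p = 1). Single animals moved by up to 0.49 in milk cells and milk fat, in both directions. These spreads do not show that the ratio was constant.

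**Figure D4:**
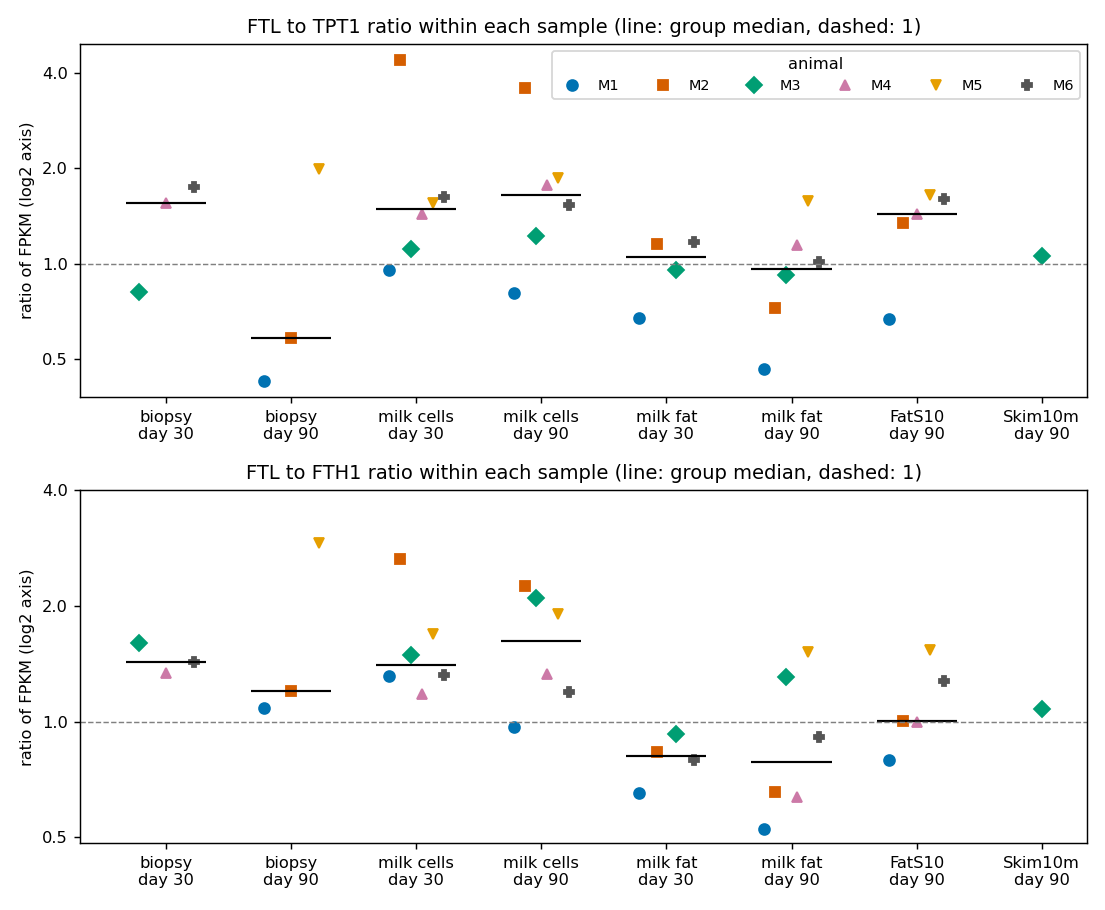
Ratio of FTL to TPT1 (top) and of FTL to FTH1 (bottom) within each sample, on a log2 axis, by sample type and day, with 1 symbol per animal, a line at the group median and a dashed line at 1. Milk cells of M2 have the highest ratios to TPT1, 4.38 and 3.57, and M1 has the lowest in each group that holds it.

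The high FTL level of M2 in milk cells came with other differences of these samples. At day 30, M2 also had the highest FTH1 level, 4478 FPKM against 2038 to 3233 FPKM in the other animals, and the highest level of the row that overlaps FTL, 480 FPKM against 133 to 235 FPKM. Its TPT1 level of 2709 FPKM was not apart. B2M, the light chain of class I histocompatibility molecules, was at 10805 FPKM in M2 and at 2231 to 4021 FPKM in the other animals. CSN2 was lowest in M2, at 272092 FPKM against 317322 to 416185 FPKM. B2M and CSN2 are examples from the matched rows. Over the 12 milk cell samples the Pearson correlation with FTL was 0.846 for B2M and -0.622 for CSN2. It was also negative for LYZ, the gene of lysozyme, at -0.274, and for SPP1, at -0.450.

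At day 90 the same signs were smaller. In M2, B2M was at 4849 FPKM, above 2188 to 2810 FPKM in the others, and CSN2 at 324270 FPKM was again the lowest. In milk fat as deposited M2 had the highest FTL level of 4 animals at day 30, at 3652 FPKM, but not at day 90, at 2580 FPKM. In bulk RNA, more cells of a type and more RNA per cell cannot be told apart, and the part of the cell make-up in the FTL values was not tested.

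The rows most like each transcript were found by Pearson correlation over the 12 milk cell samples and over the 10 milk fat samples, among 4033 rows averaging at least 10 FPKM. These samples share animals and scaling factors, and the correlations are a description. In milk cells TPT1 was most like ENSMMUT00000039887 on chromosome 7 (107335186 to 107335753), with r = 0.994, and ENSMMUT00000023985 on chromosome 20 (8396018 to 8396798), with r = 0.988. Without the 2 samples farthest from the median of TPT1 these were 0.991 and 0.982. In milk fat the 2 most alike rows were others, on chromosomes 8 and 11, with r of 0.975 and 0.963. All 4 spans were under 1000 bases, from 325 to 781.

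A row on chromosome 17 was also looked at, chosen after values were seen, as the highest row of the chromosome that carries TPT1 in the RefSeq assembly (24256063 to 24260373, 4311 bases, with no symbol given to it here). Its correlation with TPT1 was 0.979 in milk cells and 0.810 in milk fat. It was lower at day 90 in milk cells in 6 of 6 animals, at -0.62 ± 0.22 (log2, SE, limma adjusted p = 0.0953), and higher in milk fat in 4 of 4. In biopsies as deposited the row had the opposite order, at 171 to 238 FPKM in M1, M2 and M3 and at 356 to 393 FPKM in M4, M5 and M6, whereas after scaling the sets overlapped. Whether the row belongs to TPT1 was not tested.

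FTL had fewer close neighbors. In milk cells the highest correlations were 0.947, with ENSMMUT00000006306 on chromosome 13 (86109449 to 86112454), and 0.904, with ENSMMUT00000014921 on chromosome 1 (129132887 to 129166851), and both fell to 0.82 without the 2 farthest samples. The overlapping row was at 0.860, and B2M was at 0.846, which fell to 0.631. LYZ, the gene of lysozyme, was at -0.274, and at 0.091 without the 2 farthest samples. With FTH1 the correlation was 0.677, and 0.330 without the 2 farthest samples, so that it rested on them. In milk fat the correlation of FTL was 0.799 with the overlapping row and 0.419 with FTH1. TPT1 and FTL were not alike, with r = 0.01 in milk cells and 0.30 in milk fat.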

How the data were processed

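Total RNA of 34 samples was made into poly(A)-selected libraries and sequenced as single 100-base reads. The authors trimmed the reads, mapped them to the macaque assembly rheMac2 with TopHat and Bowtie, and estimated the deposited FPKM of each Ensembl transcript with Cufflinks, which divides by transcript length and library size and shares reads among overlapping rows. Tool versions were not given in the sources used here. FPKM hold no read counts, so depth was estimated only relative to other samples. The 102 columns were averaged to 34 samples (100 runs were closest to a run of their own sample, and 0 pairs of columns were identical), and 6 columns whose names match no sample were not used.

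Levels are FPKM as deposited unless called scaled. For tests, FPKM were divided by median-of-ratios factors over the 21792 rows above 0 in all samples, and limma 3.58.1 in R 4.3.3 was fitted to log2(scaled FPKM + 1), two-sided, with a trend in the prior variance, for rows averaging 1 FPKM or more over the samples of a comparison. The pseudocount understates changes of low rows but matters little at these levels. Calls are at a Benjamini-Hochberg adjusted p under 0.05. On simulated data, 89.5% of 200 rows changed by 2 on the log2 scale were called for milk cells by day, 92% for milk fat by day and 91.5% for FatS10 against milk fat. The fitted changes of TPT1, FTL and FTH1 were all much smaller than 2, and the recovery of changes of their size was not simulated. Ratios were tested with exact sign-flip permutation tests over animals. Other steps used Python 3.11.15, numpy 2.4.6, pandas 2.3.3 and matplotlib 3.10.9.

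The labels give the animal of each sample. Deviations from group means correlated within each animal's pair of samples, at 0.245 to 0.653 between the days of milk cells, 0.273 to 0.617 between those of milk fat, 0.341 to 0.557 between FatS10 and milk fat and 0.286 to 0.569 between FatS10 and milk cells, so that the animal pairs the samples. Values with animal as a block are printed where they change a call.

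The transcripts and lists were chosen with earlier results of these data known. Named were TPT1, FTL, FTH1, the other coding rows of the tables of abundant transcripts whose mean FPKM could be matched within 2%, and for each transcript the 2 rows with the highest correlation in milk cells and in milk fat. Lists of iron handling, translation and cell type markers were not used, because no table used here pairs transcript identifiers with symbols. Alternatives covered scaling, pseudocount, filter, variance trend, technical runs, Skim10m added, the block and each animal left out. Those on the overlapping FTL row, on the 4 animals with both days of milk fat, and on the block with FPKM as deposited or with an animal left out were added after seeing the data. Counts per gene, which the authors tested, were not used here.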

Additional observations from a re-analysis of the deposited data

Results flagged for a closer look

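Dixon's test at 95% was run 20 times, on levels and on log2 ratios in groups of 4 to 10 samples. In 4 of these tests the highest or lowest sample stood apart, which chance gives in about 1 of 20. The tests share samples and values and are not independent. The FTL level of M2 was apart in milk cells at day 30, at 11876 FPKM, where the next animal was at 5468 FPKM, and at day 90, at 7071 FPKM, where the next was at 3406 FPKM. The log2 ratio of FTL to TPT1 in the same day 30 sample was 2.13. In FatS10 the log2 ratio of FTL to TPT1 of M1 was -0.58, and M1 also had the lowest ratio in the other groups that hold it. The flags come from 2 animals, and those of M2 share the same FTL levels.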

How the results depend on the processing

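Depth is known only as a relative value, symbols rest on matched means, and FatS10 and Skim10m are unexplained labels. The cause of the changes below was not tested. With each technical run taken as its own value, which counts runs as if they were animals, TPT1 passed by day in milk cells (-0.46) and milk fat (0.39), in the difference between them (0.85) and in FatS10 against milk cells (0.31), and FTL in milk cells (-0.44) and in the difference (0.74). With animal as a replicate block, calls were gained for TPT1 in milk cells (-0.45), the difference (0.88) and FatS10 against milk cells (0.49) and for FTL in milk cells (-0.43), and lost for TPT1 in FatS10 against milk fat (-0.40). FTL in FatS10 against milk cells turned to 0.067. As deposited with the block, TPT1 passed at -0.51, 0.73 and 0.46 and FTL at -0.49 in the same comparisons, FTL in milk fat by day turned to -0.12 and FTL in FatS10 against milk cells to 0.036. TPT1 in FatS10 against milk fat, not called as deposited, was called as deposited with the block (-0.27). Among TPT1 and FTL, the block changed no other call on scaled FPKM or on FPKM as deposited, and FTH1 gained calls in milk cells by day and in FatS10 against milk cells. No paired analysis was possible for biopsies because the days are in different animals. TPT1 in FatS10 against milk fat was also not called as deposited (-0.30), scaled to the 75th percentile (-0.46), scaled without the 20 highest transcripts (-0.10) or with no filter on low FPKM (-0.46). FTL in FatS10 against milk cells turned to 0.066 as deposited. The ratio of FTL to FTH1 by day in milk cells turned to -0.00023 with the median of runs. FTH1 turned to -0.13 in milk fat as deposited with the block and to 0.036 in FatS10 against milk fat without the 20 highest transcripts. That last scaling moved the median of all transcripts to 0.14 by day in milk cells and 0.25 in FatS10 against milk fat, and the share of lower among called transcripts in the latter from 58.0% to 13.6%. As deposited that share was 26.1%.

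With each animal left out, with and without the block, TPT1 by day ranged from -0.52 to -0.40 in cells, 0.33 (without M6) to 1.202 (without M3) in biopsies, 0.80 to 0.95 in the difference, -0.55 to -0.33 in FatS10 against milk fat and 0.26 to 0.56 against milk cells. FTL by day ranged from -0.53 to -0.37 in cells, -0.11 to 0.42 in fat, -0.31 to 0.19 in biopsies, -0.049 to 0.21 in FatS10 against milk fat and -0.11 to 0.25 against milk cells. FTH1 ranged from -0.38 to 0.040 in biopsies and from -0.023 to 0.33 in milk fat. The ratio of FTL to TPT1 by day in milk cells ranged from -0.042 to 0.079, and that of FTL to FTH1 had a range of -0.10 to 0.090 there and of -0.15 to 0.13 by day in milk fat. The count of transcripts called by day in milk cells was 705, 0 as deposited, 1230 without the 20 highest transcripts, 344 among those averaging 10 FPKM, 0 with no filter, 6180 by run and 3454 with the block, and it was 0 without M1, M5 or M6, 1 without M2, 97 without M4 and 2897 without M3. By day in milk fat it was 0, and 1132 by run. For FatS10 against milk fat it was 3108, 1223 with no filter, 5137 with the block and 706 without M1, and against milk cells 98, 23 as deposited, 3493 with the block and 7 without M4. With the block and 1 animal left out, the counts fell to 757 in milk cells by day (without M6), to 2 in FatS10 against milk fat (without M2), to 13 in FatS10 against milk cells (without M5), and from 1307 to 0 in the difference of day changes (without M1, M2 or M6).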
